A study of Mus musculus with 18 samples.

Results

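The PERK-ATF4 arm of the integrated stress response was followed through 10 genes of mouse liver: Eif2ak3, Ppp1r15a, Atf4, Atf5, Ddit3, Trib3, Sesn2, Ddit4, Chac1 and Asns. They were taken by their symbols from a table of 19057 genes, in which all 10 were present. Liver RNA had been sequenced in 6 groups of male ICR mice with 3 libraries each, 18 libraries in all, as mRNA selected with oligo(dT). Con mice ate the regular diet and received saline. HS mice were put on a high-fat diet at 3 weeks and were injected once, at 5 weeks, with 85 mg/kg of streptozotocin (STZ), which is toxic to insulin-producing beta cells. A10-FMT and Con-FMT mice had the diet and STZ of HS and were also given small-intestinal microbiota by mouth from 5 to 7 weeks of age, pooled from donors dosed with 10 mg/kg of alginate oligosaccharide (AOS) or from control donors. The age at collection was 10 weeks in all 6 groups. The other groups are known from their labels alone, A10 as AOS at 10 mg/kg and HS+A10 as high-fat diet and STZ with AOS at 10 mg/kg. HS is a diet and toxin model with no mutation, donor microbiota was pooled, and the labels do not say whether each library is 1 animal, so that the p-values measure the spread between these libraries.

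PERK, encoded by Eif2ak3, is a kinase of the endoplasmic reticulum membrane that senses unfolded proteins and phosphorylates the initiation factor eIF2, which slows protein synthesis while favouring translation of a few mRNAs such as that of ATF4. ATF4 then activates genes of amino acid supply and redox balance together with CHOP, TRIB3 and the phosphatase subunit GADD34, which reverses the phosphorylation. The ATF4 program can also be entered from other eIF2 kinases, and in liver it responds to protein load, amino acid shortage and mitochondrial stress. Because ATF4 is largely controlled in translation, its mRNA is not a direct measure of its activity.

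The deposited values are RPKM, reads scaled to gene length and to the mapped reads of the library, so levels can be set side by side between genes. The number of reads is not given in the sources used here, and the steps between low values of 248 genes put the relative depth of the libraries between 0.952 and 1.08 of their mean. The 5 hepatocyte markers were all above 1 RPKM in every library, with a sum between 36249.7 and 59247.5 RPKM. Con-FMT replicate 3 held 10 pancreatic acinar transcripts at a sum of 17146 RPKM, against 0.17 to 3.54 RPKM in the 17 other libraries. Con replicate 3 lay between the other Con libraries for 818 of 858 genes that differed between those by over 0.5 log2 units (95.3%), and A10 replicate 3 for 540 of 577 (93.6%), against 23.1% to 72.6% in the remaining libraries. Con-FMT replicate 3 was left out, as were Con replicate 3 and A10 replicate 3 together. Where this changed a call of a tested gene of the set, the value without them is given beside it. Calls of single genes outside the set, and of Asns, were not checked in this way. The count of all genes called was recomputed. Without Con replicate 3 and A10 replicate 3 it went from 1809 to 697 in HS against Con. It went from 1464 to 599 in A10-FMT and from 2637 to 1626 in Con-FMT against Con. The background shares given below are from all 18 libraries. Differences between groups are given on the log2(RPKM + 1) scale from limma, which understates changes of genes near 1 RPKM, and a gene was called at a Benjamini-Hochberg adjusted p under 0.05 over the 10204 genes whose mean reached 1 RPKM. Of the 10 genes 9 entered this test, and Asns, at a mean of 0.742 RPKM, did not. An exact permutation test of 3 libraries against 3 cannot go below 0.1, which is what every pair of groups without overlap gave. Lack of overlap was common among all genes. Against Con it was found for 5 of the 10 genes in HS, where 36.8% of all tested genes showed it. It was found for 8 in A10-FMT (32.1%), 8 in Con-FMT (39.4%), 5 in HS+A10 (46.9%) and 2 in A10 (24.8%). In the other comparisons of groups the share of all tested genes was 27.4% to 37.4%. In bulk tissue, fewer cells of a type and less RNA per cell cannot be told apart.

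Eif2ak3, the PERK gene itself (chromosome 6, 70844515 to 70905245, plus strand, 19 merged exons), was highest in Con-FMT. It read 3.12, 2.49 and 3.27 RPKM in Con, 4.15, 3.07 and 3.02 in A10, and 4.03, 4.76 and 5.73 in HS. It read 2.55, 2.95 and 3.04 RPKM in HS+A10, 8.99, 7.75 and 6.85 in Con-FMT, and 2.88, 1.71 and 2.77 in A10-FMT. Every Con-FMT library lay above every other library, HS lay above Con, and the remaining neighbours in the order of means overlapped. Con-FMT was higher than Con by 1.16 ± 0.15 log2 units (SE; adjusted p = 7.37e-05) and higher than HS by 0.61 ± 0.15 (adjusted p = 0.00978), while A10-FMT was lower than Con-FMT by -1.37 ± 0.15 (adjusted p = 5.52e-05) and lower than HS by -0.77 ± 0.15 (adjusted p = 0.00346). HS against Con passed more narrowly, at 0.56 ± 0.15 (adjusted p = 0.0213), and missed the threshold after median scaling (adjusted p = 0.108) and without Con replicate 1 (0.0511), Con replicate 2 (0.0677), HS replicate 2 (0.0539), HS replicate 3 (0.0819) or both Con replicate 3 and A10 replicate 3 (0.0521).

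Ppp1r15a encodes GADD34, which brings a phosphatase to eIF2 and ends the block on translation (chromosome 7, 45522916 to 45526268, minus strand). Its levels were 4.12, 4.07 and 4.46 RPKM in Con, 5.30, 4.0 and 4.58 in A10, and 5.12, 6.98 and 4.0 in HS. They were 4.22, 4.26 and 3.86 RPKM in HS+A10, 7.46, 7.98 and 6.98 in Con-FMT, and 3.50, 3.97 and 3.80 in A10-FMT. Con-FMT was thus high in all its libraries and level with HS replicate 2 at its lowest, and A10-FMT had the lowest mean. Con-FMT exceeded Con by 0.70 ± 0.13 (adjusted p = 0.00109), and A10-FMT was below Con-FMT by -0.83 ± 0.13 (adjusted p = 0.000583). HS exceeded Con by 0.26 ± 0.13, which did not pass (adjusted p = 0.16). The gene overlaps Tulp2 on the opposite strand, and since strand-specific counting is not stated, reads of the overlap cannot be assigned.

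Atf4, the transcription factor at the centre of the response (chromosome 15, 80255184 to 80257541, plus strand), was abundant in every liver and did not rise under the diet and STZ. It stood at 68.43, 76.20 and 72.42 RPKM in Con, 61.32, 70.10 and 70.28 in A10, and 60.48, 88.21 and 81.06 in HS. It stood at 42.78, 45.66 and 49.52 RPKM in HS+A10, 64.94, 64.40 and 42.15 in Con-FMT, and 55.22, 54.02 and 54.44 in A10-FMT. The Con and HS libraries overlapped, whereas every HS+A10, A10-FMT and Con-FMT library lay below the lowest Con library. HS differed from Con by 0.06 ± 0.15 (95% interval -0.26 to 0.38, adjusted p = 0.791). HS+A10 fell by 0.64 ± 0.15 against Con (adjusted p = 0.00449) and by 0.71 ± 0.15 against HS (adjusted p = 0.0146), and the second call was lost without HS replicate 2 (adjusted p = 0.0687), HS replicate 3 (0.0619) or HS+A10 replicate 1 (0.0701). The differences of A10-FMT and Con-FMT from Con were -0.40 ± 0.15 (adjusted p = 0.089) and -0.36 ± 0.15 (adjusted p = 0.0907), and neither passed. Without Con-FMT replicate 3 the latter difference was -0.16 (adjusted p = 0.403).

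Atf5 encodes a bZIP factor whose mRNA, like that of Atf4, is favoured in translation when eIF2 is phosphorylated, and it was the most abundant of the 10 genes (chromosome 7, 44812256 to 44816658, minus strand). It measured 117.49, 113.06 and 129.90 RPKM in Con, 163.10, 162.83 and 168.14 in A10, and 223.62, 153.73 and 150.19 in HS. It measured 96.76, 146.18 and 103.40 RPKM in HS+A10, 132.89, 116.88 and 78.12 in Con-FMT, and 80.64, 101.45 and 90.90 in A10-FMT. All A10 and HS libraries were above all others, A10-FMT lay below Con, and HS replicate 1 held the highest value. A10-FMT was lower than HS by -0.92 ± 0.19 (adjusted p = 0.00485), and Con-FMT was lower than HS by -0.69 ± 0.19 (adjusted p = 0.0177), which was lost without HS replicate 1 (adjusted p = 0.0829) or Con-FMT replicate 3 (0.0739). HS exceeded Con by 0.52 ± 0.19 (adjusted p = 0.0706) and A10 exceeded Con by 0.45 ± 0.19 (adjusted p = 0.319), and neither passed although the groups did not overlap. Nup62 and Il4i1 lie across it on the opposite strand, so the limit on strand holds here too.

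Ddit3 encodes CHOP, the factor that turns a prolonged response towards cell death (chromosome 10, 127290774 to 127296288, plus strand, overlapped by Mars on the opposite strand). Its values were 5.32, 5.33 and 6.48 RPKM in Con, 3.48, 5.33 and 5.32 in A10, and 5.77, 17.67 and 10.73 in HS. They were 3.55, 5.51 and 4.94 RPKM in HS+A10, 18.61, 21.05 and 7.88 in Con-FMT, and 8.06, 4.11 and 7.09 in A10-FMT. CHOP mRNA varied more within HS and Con-FMT than within the other groups, since HS replicate 1 was at the level of Con and Con-FMT replicate 3 at that of A10-FMT. Con-FMT was higher than Con by 1.23 ± 0.35 (adjusted p = 0.0187), a call lost without Con replicate 1 (adjusted p = 0.0539), Con replicate 2 (0.0507), Con-FMT replicate 1 (0.0711), Con-FMT replicate 2 (0.0752) or both Con replicate 3 and A10 replicate 3 (0.0504). Without Con-FMT replicate 3, the library with pancreatic transcripts, the difference was 1.64 (adjusted p = 0.00313). HS was above Con by 0.77 ± 0.35, which did not pass (adjusted p = 0.137) but did without HS replicate 1 (1.15, adjusted p = 0.0384).

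Trib3 encodes a pseudokinase induced by ATF4 and CHOP that restrains both ATF4 and insulin signalling through AKT (chromosome 2, 152337422 to 152344032, minus strand). It was lowest in Con, at 1.32, 1.65 and 1.44 RPKM, followed by A10 at 4.0, 1.61 and 2.33 RPKM. With the diet and STZ it was at 7.25, 4.45 and 4.10 RPKM in HS, at 6.27, 4.80 and 7.50 RPKM in Con-FMT, and at 11.46, 7.44 and 7.06 RPKM in A10-FMT. It was highest in HS+A10, at 19.82, 14.74 and 15.91 RPKM. The 12 libraries with diet and STZ were all above the 6 without, and the HS+A10 libraries were above all others. Trib3 was higher than in Con by 1.31 ± 0.24 in HS (adjusted p = 0.00267), 1.94 ± 0.24 in A10-FMT (adjusted p = 0.000153), 1.53 ± 0.24 in Con-FMT (adjusted p = 0.000323) and 2.84 ± 0.24 in HS+A10 (adjusted p = 2.91e-06). HS+A10 also exceeded HS, by 1.53 ± 0.24 (adjusted p = 0.00382). These 5 calls held under each alternative tried at the threshold of 0.05, and the first 4 kept adjusted p-values of at most 0.021 when Con replicate 3 and A10 replicate 3 were both left out.

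Sesn2 encodes sestrin 2, a leucine sensor that inhibits mTORC1 and is induced by ATF4, p53 and NRF2 (chromosome 4, 132492032 to 132510501, minus strand). Con libraries held 1.49, 1.10 and 1.55 RPKM and A10 libraries 1.93, 1.43 and 1.98. HS libraries held 3.19, 2.73 and 2.12 RPKM, A10-FMT libraries 3.14, 2.92 and 2.29, and Con-FMT libraries 2.78, 2.07 and 3.11. HS+A10 libraries held 5.25, 4.31 and 4.92 RPKM. As for Trib3, all 12 diet and STZ libraries lay above the other 6, and HS+A10 above the rest. Sesn2 exceeded Con by 0.62 ± 0.14 in HS (adjusted p = 0.00857), 0.67 ± 0.14 in A10-FMT (adjusted p = 0.0055), 0.61 ± 0.14 in Con-FMT (adjusted p = 0.0044) and 1.29 ± 0.14 in HS+A10 (adjusted p = 1.67e-05). Its difference between HS+A10 and HS, 0.67 ± 0.14 (adjusted p = 0.0125), was lost without HS replicate 3 (adjusted p = 0.0619) or HS+A10 replicate 1 (0.0661).

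Ddit4 encodes REDD1, another inhibitor of mTORC1, which ATF4, hypoxia and glucocorticoids induce (chromosome 10, 59949669 to 59951834, minus strand). It read 3.38, 3.93 and 3.73 RPKM in Con, 2.80, 1.91 and 1.96 in A10, and 1.86, 4.70 and 4.39 in HS. It read 1.61, 1.94 and 2.11 RPKM in HS+A10, 5.62, 7.95 and 4.28 in Con-FMT, and 2.28, 2.85 and 2.92 in A10-FMT. The Con-FMT libraries lay above all others except 2 of HS, which passed only the lowest of them, and HS+A10 and A10 were low, with HS replicate 1 beside them. A10-FMT was below Con-FMT by -0.89 ± 0.22 (adjusted p = 0.0125), a call lost without Con-FMT replicate 2 (adjusted p = 0.0573). HS+A10 fell by 0.70 ± 0.22 against Con (adjusted p = 0.0261) and missed the threshold without Con replicate 2 (adjusted p = 0.0686), Con replicate 3 (0.0662), HS+A10 replicate 1 (0.0888), HS+A10 replicate 2 (0.0565) or both Con replicate 3 and A10 replicate 3 (0.081).

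Chac1 encodes an enzyme that degrades glutathione and is a target of ATF4 (chromosome 2, 119351229 to 119354381, plus strand). Its levels were 1.18, 0.65 and 1.03 RPKM in Con, 1.99, 0.80 and 1.23 in A10, and 2.36, 1.21 and 0.40 in HS. They were 2.77, 3.98 and 0.80 RPKM in HS+A10, 6.51, 11.69 and 15.77 in Con-FMT, and 2.94, 3.26 and 3.87 in A10-FMT. Con-FMT stood above all other groups, and both groups of microbiota recipients lay above Con and HS. Con-FMT exceeded Con by 2.59 ± 0.37 (adjusted p = 0.000164) and HS by 2.42 ± 0.37 (adjusted p = 0.000449), and without Con-FMT replicate 3 these differences were 2.33 (adjusted p = 0.000982) and 2.16 (adjusted p = 0.00224). A10-FMT was below Con-FMT by -1.43 ± 0.37 (adjusted p = 0.0142), and without Con-FMT replicate 3 by -1.17, which did not pass (adjusted p = 0.0584). The difference of A10-FMT from Con, 1.16 ± 0.37 (adjusted p = 0.0464), was lost when any single library of either group was left out (adjusted p from 0.0776 to 0.124), and without both Con replicate 3 and A10 replicate 3 (0.132).

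Asns, which encodes asparagine synthetase and is a classical target of ATF4 under amino acid shortage (chromosome 6, 7675169 to 7693254, minus strand), went the other way. It was at 2.65, 0.79 and 2.37 RPKM in Con, 0.28, 0.74 and 0.98 in A10, and 0.24, 0.43 and 0.29 in HS. It was at 0.24, 0.20 and 0.03 RPKM in HS+A10, 0.47, 0.55 and 2.18 in Con-FMT, and 0.38, 0.10 and 0.43 in A10-FMT. Every HS, HS+A10 and A10-FMT library was below every Con library, and Con-FMT replicate 3 stood apart from the other libraries of its group. When all 19057 genes were tested without a filter, Asns differed from Con by -1.09 ± 0.30 in HS (adjusted p = 0.0427), -1.28 ± 0.30 in HS+A10 (adjusted p = 0.0103), -1.11 ± 0.30 in A10-FMT (adjusted p = 0.0452) and -0.53 ± 0.30 in Con-FMT (adjusted p = 0.291). At levels under 1 RPKM these values rest on few reads.

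**Figure D1:**
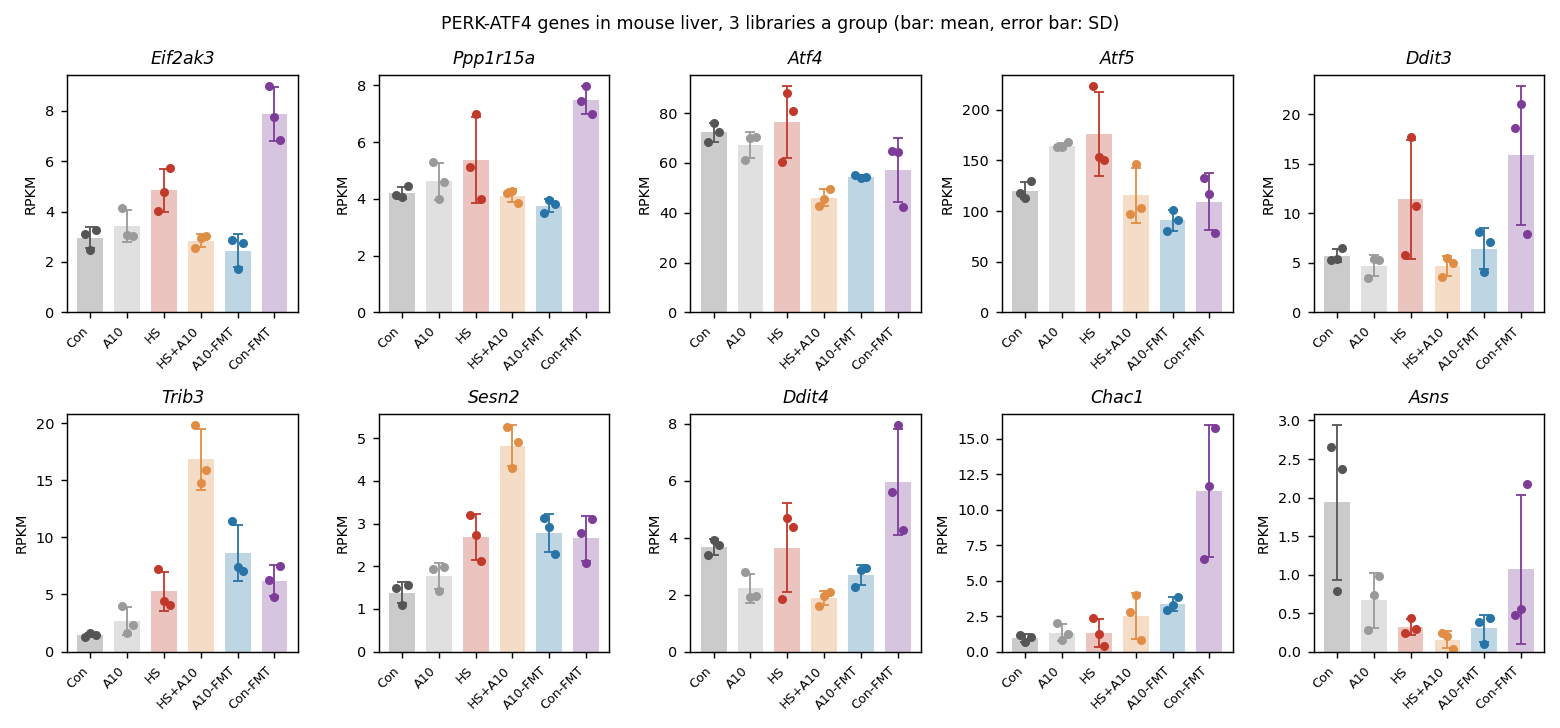
RPKM of the 10 genes (vertical axes, each from 0) in the 6 groups (horizontal axes), with each library as a point, the group mean as a bar and the SD as an error bar (n = 3). Eif2ak3, Ppp1r15a and Chac1 peak in Con-FMT, Trib3 and Sesn2 peak in HS+A10, and Asns is highest in Con.

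The promoters were read because Trib3 and Chac1 were called higher in Con-FMT than in Con and Asns was not. ATF4 also binds the C/EBP-ATF response element. Chac1 was not called in HS or HS+A10 against Con. RefSeq windows of build GRCm38.p6, from 250 bases before to 50 bases after each annotated start, were matched by symbol for all 10 genes (11 windows). The core TGATGNAA, searched on both strands, occurred in 3 of the 11 windows, those of Trib3, Chac1 and Asns, and in 3.97% of the 32851 windows of all genes. The palindromic cAMP response element TGACGTCA occurred in the Ppp1r15a window and in 1.79% of all windows, and the E-box CACGTG, also a palindrome, occurred in none of the 11 and in 7.15% of all. No match overlapped another. The 4 windows with a match are shown 5′ to 3′ on the strand of the gene, with the matched letters in capitals.
Trib3 promoter, chr2:152344011-152344310, minus strand: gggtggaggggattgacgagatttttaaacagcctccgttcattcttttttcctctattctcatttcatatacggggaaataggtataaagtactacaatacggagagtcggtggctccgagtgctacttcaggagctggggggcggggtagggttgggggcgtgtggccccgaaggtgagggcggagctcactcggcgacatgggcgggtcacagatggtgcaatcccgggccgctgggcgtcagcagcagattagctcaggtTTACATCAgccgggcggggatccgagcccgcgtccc
Chac1 promoter, chr2:119350992-119351291, plus strand: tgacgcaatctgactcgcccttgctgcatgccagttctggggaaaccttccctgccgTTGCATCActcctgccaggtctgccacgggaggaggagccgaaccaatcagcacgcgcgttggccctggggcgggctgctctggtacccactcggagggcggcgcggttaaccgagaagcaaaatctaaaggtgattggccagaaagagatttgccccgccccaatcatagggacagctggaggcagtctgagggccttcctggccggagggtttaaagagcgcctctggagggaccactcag
Asns promoter, chr6:7693160-7693459, minus strand: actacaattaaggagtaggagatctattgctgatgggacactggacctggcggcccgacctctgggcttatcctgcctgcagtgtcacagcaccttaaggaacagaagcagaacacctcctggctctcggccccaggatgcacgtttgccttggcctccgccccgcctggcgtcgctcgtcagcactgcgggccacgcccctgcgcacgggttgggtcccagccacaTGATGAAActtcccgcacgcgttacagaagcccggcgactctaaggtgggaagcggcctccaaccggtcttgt
Ppp1r15a promoter, chr7:45526219-45526518, minus strand: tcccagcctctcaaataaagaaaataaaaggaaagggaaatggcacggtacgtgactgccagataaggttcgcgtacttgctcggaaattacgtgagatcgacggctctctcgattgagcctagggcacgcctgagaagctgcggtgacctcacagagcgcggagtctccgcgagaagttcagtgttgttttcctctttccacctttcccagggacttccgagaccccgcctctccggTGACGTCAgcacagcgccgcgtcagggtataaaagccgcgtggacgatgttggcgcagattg

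The Trib3 match lies on the opposite strand from base 15 to base 22 of the transcript, the Chac1 match on the opposite strand from -193 to -186, the Asns match on the gene strand from -23 to -16, and the Ppp1r15a match from -12 to -5, counted from the annotated start. Trib3 and Asns thus share the core near their starts, while Trib3 was at its highest and Asns at its lowest in HS+A10, and the reverse in Con. The Sesn2 window, whose gene followed Trib3 across the groups, held none of the 3 motifs. These matches describe letters in a window and not binding.

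HS against Con showed a rise in part of the set. Trib3, Sesn2 and Eif2ak3 were higher and none of the 9 tested genes was lower, while the background was 15.9% of all tested genes higher and 1.87% lower. The median difference over the 9 genes was 0.52, beside 0.14 over all tested genes. After median scaling, which removed that shift, the background was 3.9% higher and 4.76% lower, and Trib3 and Sesn2 were called among the 9. Of 4 erythroid markers 3 exceeded 1 RPKM throughout HS and 2 throughout Con, with summed levels of 2860 to 9784 RPKM in HS against 1228 to 1971 RPKM in Con. The sum of 5 stellate cell markers was 195.99 to 229.74 RPKM in HS against 98.71 to 137.91 RPKM in Con. The erythroid sum was highest in HS replicate 2, where Ddit3, Atf4, Ppp1r15a and Ddit4, none of them called here, had their highest HS values. The called genes Trib3 and Sesn2, like Atf5 and Chac1, were highest in HS replicate 1, where that sum was lowest. Eif2ak3 was highest in HS replicate 3. The part of the erythroid and stellate cells in the result was not tested.

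In HS+A10, Trib3 and Sesn2 stood above HS and Eif2ak3 and Atf4 below it. Against Con, Trib3 and Sesn2 were called higher, where the background was 23.5%, and Atf4 and Ddit4 lower, where it was 7.93%. The median over the 9 genes was -0.04, against 0.10 over all genes, and of all calls 74.8% were higher, with 49.9% to 86.4% under other scalings. Against HS, Trib3 and Sesn2 were called higher (background 2.95%) and Eif2ak3 and Atf4 lower (background 4.37%), with a median of -0.59 over the 9 genes against -0.03 over all, and 40.3% of all calls were higher, with 41.1% to 61.9% under other scalings. Eif2ak3 differed from HS by -0.59 ± 0.15 (adjusted p = 0.0295), which was lost without HS replicate 2 (adjusted p = 0.0877), HS replicate 3 (0.124), HS+A10 replicate 1 (0.118) or HS+A10 replicate 2 (0.0637). Ddit3 in HS+A10 lay below every HS library and differed from HS by -1.02 ± 0.35, which did not pass (adjusted p = 0.0873) except without HS replicate 1 (-1.40, adjusted p = 0.0171). The sum of 5 sinusoidal endothelium markers was 52.51 to 63.5 RPKM in HS+A10, 40.5 to 45.85 in HS and 36.77 to 41.48 in Con, and that of the stellate cell markers 188.79 to 195.44 RPKM in HS+A10 beside 98.71 to 137.91 in Con. Their part in these results was not tested. The number of the 9 genes called against HS was 1 without HS replicate 3 or HS+A10 replicate 1, 2 without HS replicate 2, and 4 to 6 without any other single library.

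In A10 against Con, limma called none of the 9 genes, where 0.049% of all genes were called higher and 0.0196% lower. At an unadjusted p under 0.05 there were 3 of the 9 (Atf5, Trib3 and Ddit4) and 1418 of all genes. Ddit4 was lower in every A10 library than in every Con library, by -0.55 ± 0.22 (adjusted p = 0.306). Whether AOS acted differently with and without the diet and STZ was tested as the difference between the HS+A10 against HS effect and the A10 against Con effect. None of the 9 genes passed, against 0.0098% of all genes, and 6 of the 9 and 1320 of all genes had an unadjusted p under 0.05. The estimates were -1.06 ± 0.27 for Atf5 (adjusted p = 0.148), -0.75 ± 0.21 for Eif2ak3 (adjusted p = 0.191), 1.02 ± 0.33 for Trib3 (adjusted p = 0.222) and -0.60 ± 0.21 for Atf4 (adjusted p = 0.251). The limits of the intervals were -1.64 and -0.47 for Atf5 and 0.31 and 1.73 for Trib3, so that these differences were neither called nor bounded near 0.

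Con-FMT livers carried the broadest rise. Against Con, 6 of the 9 genes were called higher (Eif2ak3, Ppp1r15a, Ddit3, Trib3, Sesn2 and Chac1) with a background of 14.4%, and none lower with a background of 11.5%. The median over the 9 was 0.70, against 0.03 over all genes, and 55.6% of all calls were higher, with 42.2% to 69% under other scalings. Without Con-FMT replicate 3 there were 7, with Ddit4 added (0.72, adjusted p = 0.0406). Against HS, Eif2ak3, Ppp1r15a and Chac1 were called higher (background 4.61%) and Atf5 lower (background 19%), and of all calls 19.5% were higher, with 17.8% to 44.6% under other scalings. Without Con-FMT replicate 3, Ddit4 was called higher than in HS too (0.79, adjusted p = 0.0269). Ppp1r15a exceeded HS by 0.44 ± 0.13 (adjusted p = 0.0222), which was lost without HS replicate 1 (adjusted p = 0.0593), HS replicate 3 (0.1), Con-FMT replicate 1 (0.0515) or Con-FMT replicate 2 (0.0749). The sum of 5 stellate cell markers was 132.86 to 169.77 RPKM in Con-FMT and 195.99 to 229.74 RPKM in HS. Its part in these results was not tested.

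A10-FMT livers showed a narrower change. Against Con, Trib3, Sesn2 and Chac1 were called higher (background 6.72%) and none lower (background 7.62%). Against HS, Eif2ak3, Ppp1r15a, Atf4 and Atf5 were called lower, with a background of 21%, and none higher, with a background of 2.09%. The median over the 9 genes was -0.40 in that comparison and -0.16 over all genes, and after median scaling the background was 5.06% lower and 6.26% higher, with Eif2ak3 and Atf5 called lower and Trib3 higher. The Ppp1r15a and Atf4 differences from HS, -0.40 ± 0.13 and -0.46 ± 0.15 (adjusted p = 0.0373 for both), were lost after median scaling (0.257 and 0.29), without HS replicate 2 (0.167 and 0.145) and without any 1 library of A10-FMT (0.0589 to 0.0936), and also without HS replicate 1 for Ppp1r15a (0.0575) and HS replicate 3 for Atf4 (0.11). Without HS replicate 1 the count of the 9 genes called against HS was 7, and it was 2 without HS replicate 2 or without any 1 library of A10-FMT. The sum of 5 Kupffer cell markers was 37.36 to 46.16 RPKM in A10-FMT and 55.64 to 96.67 RPKM in HS. Sums of erythroid (1134 to 2025 against 2860 to 9784 RPKM) and stellate cell markers (137.38 to 170.27 against 195.99 to 229.74) were also lower without overlap. So were, more narrowly, those of sinusoidal endothelium (29.1 to 40.12 against 40.5 to 45.85) and of T, B and NK cells (0.97 to 1.56 against 1.7 to 2.07). The part of these cells in the results was not tested.

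The recipients of either microbiota were also compared directly. A10-FMT was lower than Con-FMT in 5 of the 9 genes, Eif2ak3, Ppp1r15a, Ddit3, Ddit4 and Chac1, with a background of 12%, and higher in none, with a background of 6.72%. The median over the 9 was -0.83, against -0.03 over all genes, and 35.8% of all calls were higher, with 18.3% to 57.6% under other scalings. Ddit3 differed by -1.12 ± 0.35 (adjusted p = 0.038), which was lost without A10-FMT replicate 2 (adjusted p = 0.159), A10-FMT replicate 3 (0.0588), Con-FMT replicate 1 (0.12) or Con-FMT replicate 2 (0.141). Trib3 and Sesn2 did not pass between the recipients, at 0.41 ± 0.24 (95% interval -0.09 to 0.92) and 0.05 ± 0.14 (95% interval -0.24 to 0.35). Without Con-FMT replicate 2 the count was 3 and without Con-FMT replicate 3 it was 4. The sum of 5 neutrophil markers was 0.92 to 2.36 RPKM in A10-FMT and 4.71 to 7.61 RPKM in Con-FMT, and its part in these results was not tested. HS, A10-FMT and Con-FMT were each compared with the same Con libraries and both recipients with the same HS libraries, so these comparisons are not independent of each other.

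**Figure D2:**
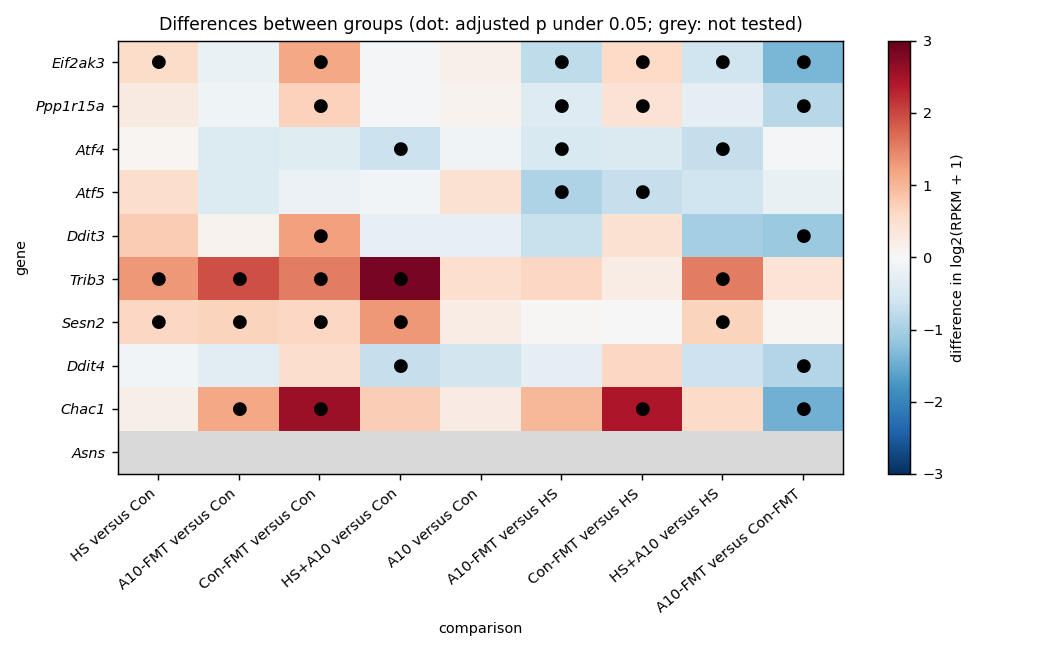
Differences in log2(RPKM + 1) for the 10 genes (rows) in 9 comparisons (columns), where red is higher and blue lower in the group named first, a dot marks an adjusted p under 0.05, and grey marks Asns, which was not tested. Trib3 and Sesn2 carry dots in each of the 4 comparisons of a diet and STZ group with Con, and the column of A10 against Con has none.

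Over the 18 libraries the 10 genes did not share a single pattern. On the log2 scale Trib3 and Sesn2 had the highest Pearson correlation of all pairs (r = 0.954). Eif2ak3, Ppp1r15a, Ddit3 and Ddit4 formed a block of 4 in which the pairs lay between 0.692 (Ppp1r15a and Ddit4) and 0.836 (Eif2ak3 and Ppp1r15a). Atf4 ran against Trib3 (-0.773) and Sesn2 (-0.727), and Asns ran against Trib3 (-0.639). These are descriptions of 18 points that share group means, with no test. Within HS, replicate 1 had the lowest Eif2ak3, Atf4, Ddit3 and Ddit4 and the highest Trib3, Sesn2, Atf5 and Chac1 of its group. Within Con-FMT, replicate 3 had the lowest Eif2ak3, Ppp1r15a, Atf4, Atf5, Ddit3 and Ddit4 and the highest Trib3, Sesn2, Chac1 and Asns. The 5 genes outside the set whose log2 values followed Trib3 most closely were Bcas3 (r = 0.97), Vwa8 (0.969), Gna12 (0.958), Npc1 (0.952) and Cpt1a (0.95).

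**Figure D3:**
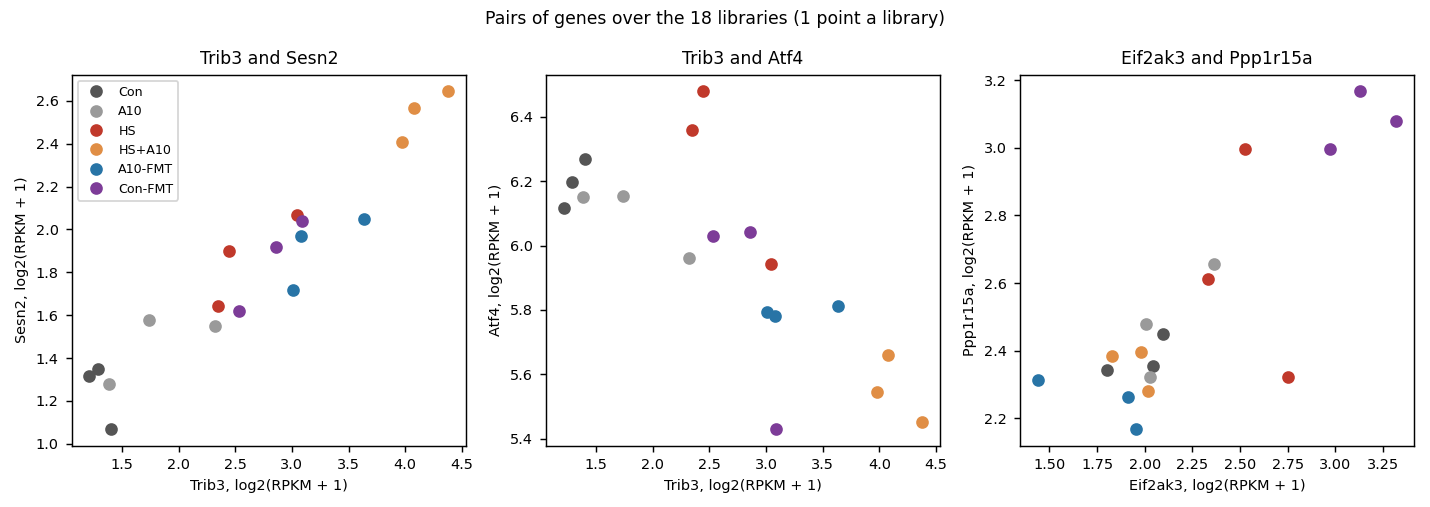
Log2(RPKM + 1) of Trib3 against Sesn2, Trib3 against Atf4 and Eif2ak3 against Ppp1r15a, with 1 point per library and colours for the 6 groups. The first pair rises together across the groups (r = 0.954), the second runs in opposite directions (r = -0.773), and in the third the Con-FMT libraries lie at the upper right (r = 0.836).

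Other genes of the pathway were taken from lists written for the eIF2 kinases and their regulators, the bZIP partners of ATF4, amino acid supply, aminoacyl-tRNA synthetases and secreted or death-related targets. Of 13 eIF2 kinases and regulators, 4 were called higher in HS than in Con (background 15.9%) and 3 in Con-FMT (background 14.4%), with none lower in either. They included Nck1, an adaptor that acts on eIF2 dephosphorylation, at 0.42 ± 0.11 in HS (adjusted p = 0.0213) and 0.58 ± 0.11 in Con-FMT (adjusted p = 0.00177), and Dnajc3, an inhibitor of eIF2 kinases, at 0.55 ± 0.13 in Con-FMT (adjusted p = 0.006). In A10-FMT against HS 6 were lower (background 21%) and none higher, with a median of -0.22 beside -0.16 over all genes, and against Con-FMT 4 were lower (background 12%), led by Dnajc3 at -0.91 ± 0.13 (adjusted p = 0.000334). Their median between the recipients was -0.16, against -0.03 over all genes.

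Of 10 bZIP partners and regulators, 6 were called higher in Con-FMT than in Con (background 14.4%) and none lower. Cebpb, a dimer partner of ATF4, read 115.76, 194.13 and 182.93 RPKM in Con-FMT against 41.5, 54.85 and 56.6 in Con (1.65 ± 0.25, adjusted p = 0.000323). Atf3, a repressor induced by ATF4, read 9.39, 8.28 and 2.38 RPKM in Con-FMT against 0.52, 0.71 and 0.80 in Con (2.04 ± 0.42, adjusted p = 0.00254). In A10-FMT, Cebpb read 72.97, 75.24 and 127.42 RPKM and Atf3 0.67, 0.4 and 4.09 RPKM, so that replicate 3 of A10-FMT overlapped Con-FMT in both genes. Both were called lower than in Con-FMT, with differences of -0.84 ± 0.25 for Cebpb (adjusted p = 0.0312) and -1.59 ± 0.42 for Atf3 (adjusted p = 0.0168). Nfe2l2, which encodes NRF2, another substrate of PERK, was higher than in Con in HS (0.78 ± 0.10, adjusted p = 0.000397), HS+A10 (0.96 ± 0.10, adjusted p = 1.9e-05), A10-FMT (0.48 ± 0.10, adjusted p = 0.00684) and, by 0.35 ± 0.10 (adjusted p = 0.0229), Con-FMT. Its highest mean was in HS+A10, as for Trib3 and Sesn2. Unlike theirs, its HS+A10 libraries (44.99, 52.82 and 48.61 RPKM) overlapped those of HS (40.52, 46.39 and 42.02 RPKM). Nfe2l2 was not called between these groups.

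In the amino acid list 9 genes were tested, and 3 were called higher than in Con in HS (background 15.9%), HS+A10 (23.5%) and A10-FMT (6.72%) and 4 in Con-FMT (14.4%), with none lower. The transporters Slc38a2 and Slc6a9 and the mitochondrial serine hydroxymethyltransferase Shmt2 were among those called in each of these 4 comparisons. Slc38a2, which imports small neutral amino acids, read 13.0, 16.28 and 15.12 RPKM in Con and 60.28, 77.23 and 53.95 in Con-FMT (2.03 ± 0.17, adjusted p = 1.96e-06). Slc6a9, a glycine transporter, was highest in HS+A10, at 9.09, 10.87 and 11.34 RPKM against 4.7, 5.16 and 4.85 in Con (0.95 ± 0.11, adjusted p = 3e-05). Of 13 aminoacyl-tRNA synthetase genes, 1 was called higher in HS than in Con (background 15.9%), and 2 were higher (14.4%) and 1 lower (11.5%) in Con-FMT. A10-FMT had 7 below HS (background 21%) and 5 below Con-FMT (background 12%), with none above. The median of the list in A10-FMT against HS was -0.28, beside -0.16 over all genes. The list was not recounted after median scaling, which removed that general shift. Nars, for asparagine, differed by -0.61 ± 0.10 between the recipients (adjusted p = 0.000692).

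Secreted and death-related targets included 9 tested genes. Gdf15, a circulating stress signal, was at 3.47, 1.73 and 2.75 RPKM in Con, 15.68, 10.8 and 8.6 in HS and 9.92, 11.99 and 20.78 in Con-FMT. It was at 2.27, 3.16 and 2.12 RPKM in A10-FMT, within the range of Con. Gdf15 exceeded Con by 1.79 ± 0.27 in HS (adjusted p = 0.000834) and 2.03 ± 0.27 in Con-FMT (adjusted p = 8.39e-05), and was lower in A10-FMT than in Con-FMT by -2.06 ± 0.27 (adjusted p = 0.000169). Fgf21, another secreted factor, was higher in HS than in Con by 1.61 ± 0.50 (adjusted p = 0.0365), with 13.91 RPKM in HS replicate 1 and 4.51 and 1.45 in the others. Bbc3, which encodes the death effector PUMA, was lower than in Con in HS (-0.62 ± 0.21, adjusted p = 0.047), HS+A10 (-1.09 ± 0.21, adjusted p = 0.00105), A10-FMT (-1.35 ± 0.21, adjusted p = 0.000806) and Con-FMT (-1.19 ± 0.21, adjusted p = 0.000704).

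**Figure D4:**
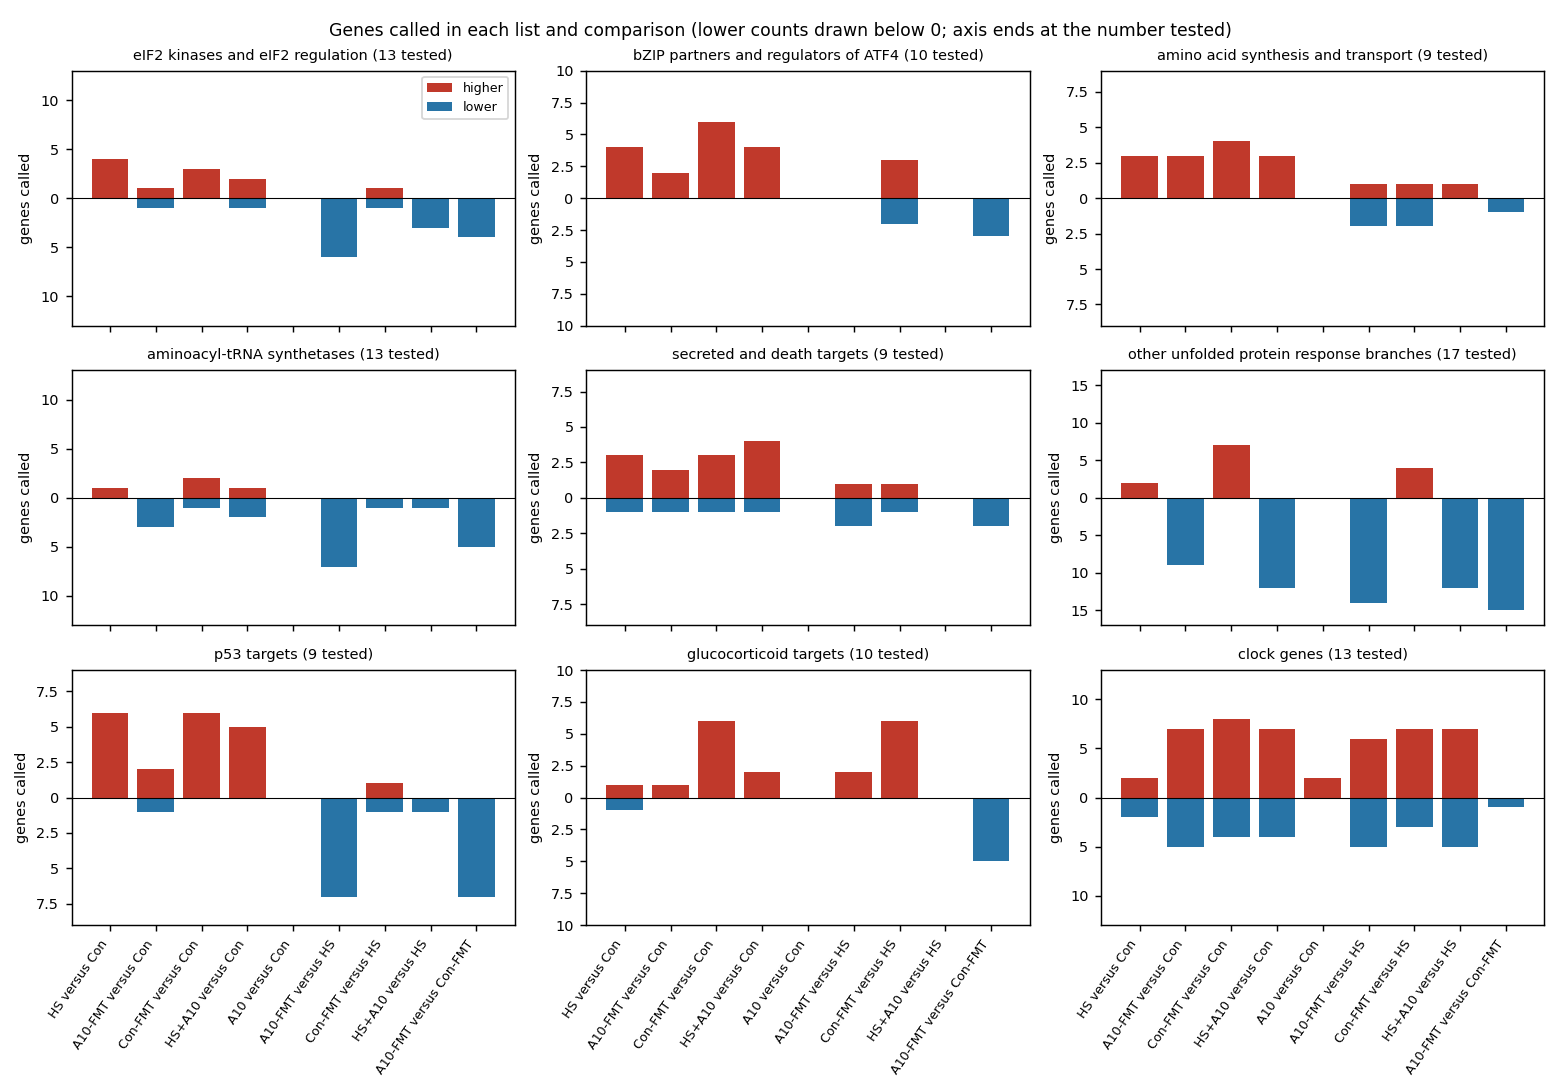
Number of genes called higher (red, above 0) and lower (blue, below 0) in 9 gene lists (panels) and 9 comparisons (horizontal axes), with each vertical axis ending at the number of list genes tested. Of the 17 genes of the other unfolded protein response branches, 7 were higher in Con-FMT than in Con, 12 were lower in HS+A10 than in Con, and 15 were lower in A10-FMT than in Con-FMT.

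The ATF6 and IRE1 branches of the unfolded protein response, which raise chaperones of the endoplasmic reticulum, were followed through a list of their own. Of 17 tested genes, 7 were called higher in Con-FMT than in Con (background 14.4%) and none lower (11.5%), and 15 were lower in A10-FMT than in Con-FMT (background 12%). In HS+A10 and A10-FMT 12 and 9 were lower than in Con (backgrounds 7.93% and 7.62%) and none higher, with medians of -0.73 and -0.72, against 0.10 and -0.02 over all genes. Hspa5, the chaperone BiP that binds PERK, stood at 285.22, 283.99 and 304.03 RPKM in Con, 104.52, 152.41 and 167.61 in HS+A10, and 798.17, 551.69 and 578.9 in Con-FMT. Within HS it stood at 232.04 RPKM in replicate 1, below Con, and at 499.4 and 444.38 in replicates 2 and 3, which is the split seen in Ddit3. Dnajb9, a co-chaperone induced by IRE1, was higher than in Con by 1.07 ± 0.23 in HS (adjusted p = 0.00704) and 2.19 ± 0.23 in Con-FMT (adjusted p = 1.18e-05). Creld2, an ATF6 target, differed by -3.05 ± 0.35 between A10-FMT and Con-FMT (adjusted p = 6.7e-05).

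The members of the set also answer to other regulators, whose targets were measured beside them. Of 9 tested targets of p53, which induces Sesn2 and Ddit4, 6 were called higher in HS than in Con (background 15.9%), 5 in HS+A10 (23.5%) and 6 in Con-FMT (14.4%), and 7 were lower in A10-FMT against HS (21%). Phlda3, one of them, was higher than in Con by 2.11 ± 0.23 in HS (adjusted p = 8.15e-05) and 2.14 ± 0.23 in HS+A10 (adjusted p = 1.74e-05). Bbc3, a p53 target counted here with the death-related targets, was lower than in Con in HS, HS+A10, A10-FMT and Con-FMT, as given above. Of 10 glucocorticoid targets, 6 were called higher in Con-FMT both against Con (background 14.4%) and against HS (4.61%), and Fkbp5, a feedback regulator of the receptor, was at 23.97, 14.72 and 22.41 RPKM there against 3.85 to 7.8 RPKM in all other libraries. Of 13 clock genes, 7 or 8 were called higher and 4 or 5 lower than in Con in HS+A10, A10-FMT and Con-FMT, where the backgrounds were 6.72% to 23.5% higher and 7.62% to 11.5% lower. Dbp, a clock output that cycles strongly over the day, lay between 0.36 and 3.41 RPKM in the 9 Con, A10 and HS libraries and between 47.26 and 98.8 RPKM in the other 9. Arntl, which cycles in the opposite phase, lay between 8.84 and 13.37 RPKM in the former and between 0.7 and 4.92 RPKM in the latter. Clock genes also differed among the former groups. Nr1d1, a clock repressor, lay between 17.17 and 26.96 RPKM in HS and between 10.03 and 30.7 in A10, against 1.22 to 3.68 in Con (2.71 ± 0.36, adjusted p = 0.000373 for HS, and 2.45 ± 0.36, adjusted p = 0.016 for A10). Its paralogue Nr1d2 was also called higher in both, and Cry1 and Npas2 were called lower in HS. The sources used here give no hour of collection, and a difference in hour cannot be told apart from the treatments in any comparison with Con or HS. Between A10-FMT and Con-FMT, where 5 members were lower, 1 of the 13 clock genes was called (Nfil3, lower by -1.47 ± 0.28, adjusted p = 0.00252), and Dbp was at 48.8 to 98.8 and 51.84 to 55.47 RPKM (0.48 ± 0.35, adjusted p = 0.387). Per1, a clock gene counted here with the glucocorticoid targets, read 6.49, 4.01 and 8.87 RPKM in A10-FMT. In Con-FMT it read 13.26, 14.21 and 10.96 RPKM, without overlap. Whether the hour of collection differed between the recipients was not tested.

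**Figure D5:**
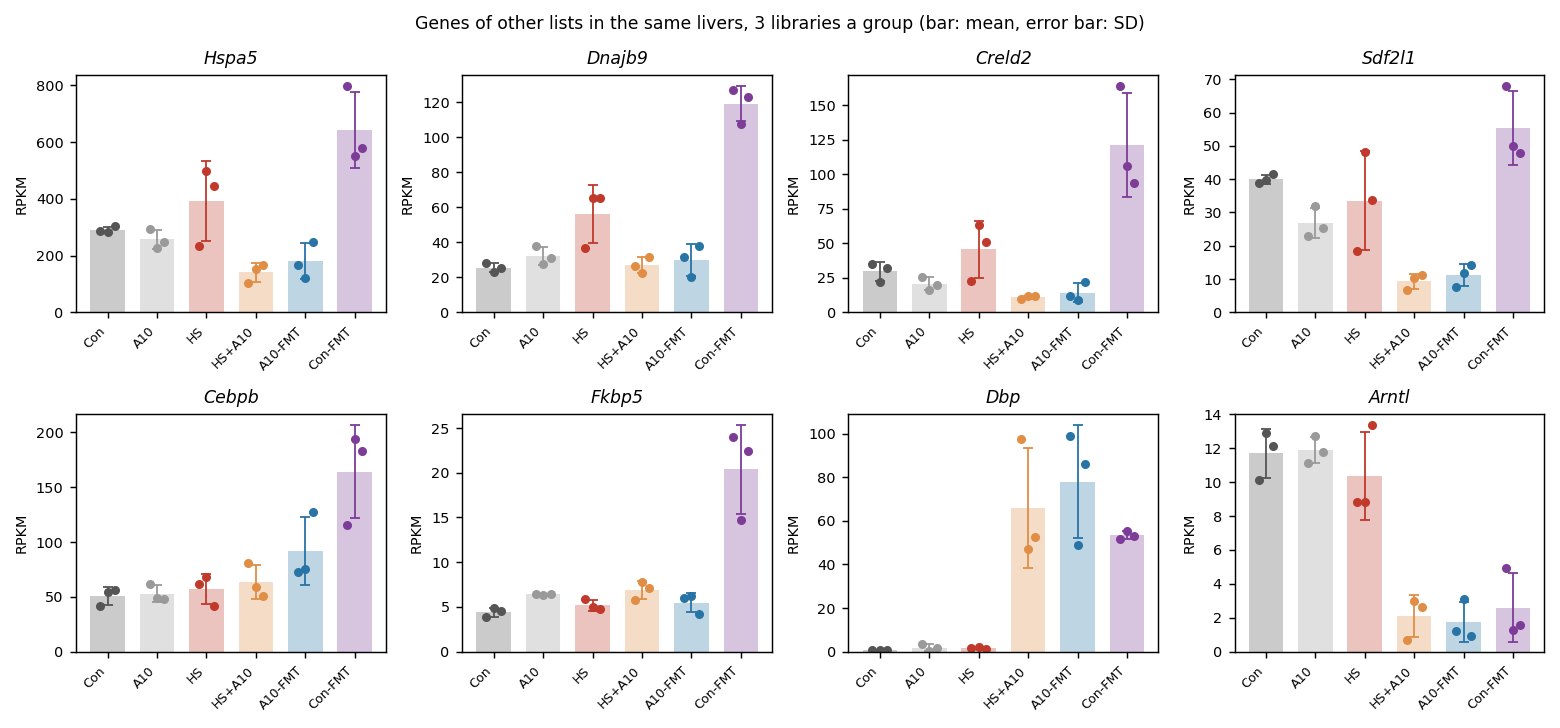
RPKM of 8 genes outside the set (vertical axes, each from 0) in the 6 groups, with libraries as points, the mean as a bar and the SD as an error bar (n = 3). Hspa5, Dnajb9, Creld2, Sdf2l1, Cebpb and Fkbp5 are highest in Con-FMT, whereas Dbp is near 0 in Con, A10 and HS and between 47.26 and 98.8 RPKM in the other groups, and Arntl is the reverse.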

How the data were processed

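The authors aligned mRNA reads (HiSeq) to reference genes with SOAPaligner, per the paper's methods; the processing notes of the submitters list Bowtie 0.12.2 and mm10 without a role. They deposited RPKM per gene and library with 2 decimals. In 26 rows the symbol had become a date, and 3 symbols were repeated. The study's own test, DEGseq, needs counts and was not used here.

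Values were analysed on the log2(RPKM + 1) scale without further scaling. Genes reaching a mean of 1 RPKM were fitted in limma 3.58.1 (R 4.3.3), with 1 mean per group over the 18 libraries, a variance trend, two-sided tests and Benjamini-Hochberg adjustment, after a test on simulated data. Groups came from the sample labels. All 10 members are named; of each list, up to 3 called genes per comparison with the smallest adjusted p were candidates, with values of Hspa5, Arntl and other named genes added after they were seen. The genes whose pattern was most like that of Trib3 are given by Pearson correlation over the libraries, and those for Atf4 are not reported here. Members and lists were chosen with earlier results of these data known. Alternatives were a pseudocount of 0.1, no filter or a mean of at least 5 RPKM, median, quantile and RPKM-sum scaling, a replicate block, fits on fewer groups, a fit lacking the trend, the study's threshold (adjusted p of at most 0.001, log2 change of at least 1) and each library left out. Leaving out Con replicate 3 and A10 replicate 3 together was chosen after seeing the data. Sequences came from RefSeq and positions from the GENCODE annotation of GRCm38. Figures were drawn with Python 3.11.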

Additional observations from a re-analysis of the deposited data

Results flagged for a closer look

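Eif2ak3 and Ppp1r15a differed between the recipients of the donor pools, measured against the same HS livers. Because donor microbiota was pooled, a difference between these pools cannot be told apart from one between kinds of microbiota. The genes were flagged because both changes from HS, with opposite signs, and the direct difference were called. The share of all genes meeting this rule was not counted. The direct difference is the difference of the changes from HS and is not independent of them. Eif2ak3 changed by -0.77 from HS in A10-FMT and by 0.61 in Con-FMT, and the direct difference between the recipients was -1.37 (adjusted p = 5.52e-05 in limma), with no overlap of the libraries. Ppp1r15a changed by -0.40 in A10-FMT and by 0.44 in Con-FMT, with a direct difference of -0.83 (adjusted p = 0.000583), again with no overlap between the recipients. Both direct differences passed at the threshold of 0.05 under each alternative in which they were tested. The changes from HS were less stable for Ppp1r15a. At that threshold they were called in 5 of 15 alternatives in A10-FMT and in 10 of 15 in Con-FMT. Those of Eif2ak3 were called in 15 of 15 in A10-FMT and in 14 of 15 in Con-FMT. With groups of 3 libraries, single outlying libraries were checked only by leaving each library out in turn.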

How the results depend on the processing

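Over all comparisons and alternatives, 1552 values of single members were recomputed, of which 1379 kept their direction and side of the threshold, 110 lost a call, 25 gained one and 38 changed sign, in each case without a call on either side. At a filter of a mean of 5 RPKM, which left only Atf4, Atf5, Ddit3 and Trib3 to test, the members called were 1 in HS, 1 in A10-FMT, 2 in Con-FMT and 2 in HS+A10 against Con, 2 in A10-FMT, 1 in Con-FMT and 2 in HS+A10 against HS, and 1 between the recipients. At the study's threshold they were 0, 1, 3 and 2 against Con, 0, 1 and 0 against HS, and 1 between the recipients. Of all 10204 tested genes, that threshold called 39, 73, 241 and 276 against Con, 33, 96 and 2 against HS, and 80 between the recipients. With only the compared groups fitted, they were 2 in A10-FMT, 1 in Con-FMT and 1 in HS+A10 against HS, where 814, 798 and 57 of all tested genes were called. In A10-FMT against HS the members called were 2 without a filter and 2 with only the 4 study groups. Leaving out 1 library gave 2 to 4 in HS, 2 in A10-FMT, 5 to 7 in Con-FMT, 3 to 5 in HS+A10 and 0 in A10 against Con, 2 to 7 in A10-FMT, 3 to 5 in Con-FMT and 1 to 6 in HS+A10 against HS, 3 to 5 between the recipients and 0 for the interaction. In HS+A10 against HS the count of all genes called moved too. It was 159 without HS+A10 replicate 1, 216 without HS replicate 3 and 1239 without HS replicate 1. For the filter of 5 RPKM and the other leave-outs, the share of all genes is not given beside the member counts. The causes of these changes were not tested beyond the smaller number of genes or libraries.

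The sign changes were near 0. Under median scaling Atf4 was at -0.12 in HS against Con and 0.038 between the recipients, Sesn2 at 0.071 in Con-FMT against HS and Ddit4 at 0.027 in the interaction. Under quantile normalization these were -0.080, 0.067, 0.15 and 0.016. With equal RPKM sums Ddit4 was at 0.011 in HS against Con, Eif2ak3, Ppp1r15a and Atf5 at 0.041, 0.057 and 0.028 in HS+A10 against Con, and Sesn2 at -0.043 in A10-FMT against HS and -0.018 between the recipients. Leaving out 1 library gave ranges in HS against Con of -0.25 to 0.25 for Ddit4, -0.14 to 0.49 for Chac1 and -0.045 to 0.22 for Atf4. The ranges were -0.057 to 0.36 for Ddit3 in A10-FMT and -0.32 to 0.055 for Atf5 in Con-FMT, against Con. In HS+A10 against Con they were -0.13 to 0.018 for Eif2ak3, -0.050 to 0.0072 for Ppp1r15a and -0.26 to 0.036 for Atf5. For Sesn2 they were -0.070 to 0.14 in A10-FMT against HS, -0.12 to 0.11 in Con-FMT against HS and -0.066 to 0.15 between the recipients, where Atf4 ranged from -0.24 to 0.065. Ddit4 ranged from -0.40 to 0.10 in the interaction. Without Con replicate 3 and A10 replicate 3, Eif2ak3 was at 0.018 and Ppp1r15a at 0.0043 in HS+A10 against Con.

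Counts of all genes called moved more, from 1809 to between 39 and 2740 in HS against Con, 1464 to between 73 and 1857 in A10-FMT and 2637 to between 241 and 2983 in Con-FMT against Con, and 3211 to between 276 and 3413 in HS+A10 against Con. They moved from 2358 to between 33 and 3779 in A10-FMT, 2413 to between 96 and 2429 in Con-FMT and 747 to between 2 and 1239 in HS+A10 against HS, from 1914 to between 80 and 2260 between the recipients, from 7 to between 0 and 73 in A10 against Con, and from 1 to between 0 and 118 for the interaction, with the low ends at the study's threshold.

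Same-numbered libraries did not deviate together (r from -0.126 to 0.262 over all pairs of groups, best match to the own number in 36 of 90), so the numbers were not taken as pairs. With the replicate number as a block, Chac1 in A10-FMT against Con was not called (adjusted p = 0.0614), leaving 2 members there, and Trib3 in A10-FMT against HS was called higher (adjusted p = 0.0271), giving 5. The number of members called in each other comparison was as without the block. RPKM without read numbers gives no counting error, which bears most on Asns, Sesn2 and Chac1 near 1 RPKM.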

Other observations

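The spread between libraries of a group differed widely among the 10 genes. The pooled SD within groups was 0.16 log2 units for Ppp1r15a and 0.18 for Sesn2, against 0.49 for Ddit3 and 0.50 for Chac1. The range of the 6 group means was 2.84 log2 units for Trib3 and 2.59 for Chac1, against 0.71 for Atf4 and 0.83 for Ppp1r15a.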
